A study of Drosophila melanogaster with 32 samples.

Results

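Trained male flies of strain hsp70-4c were set against trained males of strain hsp70-1c, both collected 5 h after training, by RNA sequencing of adult heads. The comparison holds the 3 libraries titled for hsp70-4c at 5 h and the 3 titled for hsp70-1c at 5 h, chosen by title, which are 6 of the 32 libraries of the series, and it covers all 17559 genes counted in each. The labels give the strains by the names hsp70-4c, hsp70-1c, w+hsp70- and hsp70- alone. The alleles behind those names, the age of the flies, the training procedure and whether a strain descends from 1 clone are not given in the sources used here. The labels' protocols describe biological replicates of frozen flies, so p-values measure variation between replicate pools. All 6 libraries share the tissue, the sex, the training and the time, and the groups differ in strain. Any difference below is therefore a difference between whole strains as sampled. Effects of hsp70 alleles, of the rest of the genetic background and of any rearing, handling or batch that went with strain cannot be told apart. Naive and 24 h libraries of the same strains, and naive and 5 h libraries of w+hsp70- and hsp70-, are given where they show whether a difference was also there without training, at the later time or in the other strains.

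Inducible Hsp70 is a chaperone that binds unfolded proteins, and in flies it is made from a small family of near-identical gene copies on chromosome arm 3R that are nearly silent without heat or other stress. Chaperones are studied in learning because forming a long-lasting memory requires new proteins at synapses. The series title puts the question as how Hsp70 bears on memory formation and on behaviourally relevant gene expression.

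At 5 h, 774 of 10764 genes tested differed between the strains (7.19% called), 431 of them higher in hsp70-4c (4.00%) and 343 lower (3.19%), by the edgeR quasi-likelihood test with a Benjamini-Hochberg adjusted p under 0.05. The median size of a called difference was 0.75 on the log2 scale, and 306 genes differed at least 2-fold, 173 higher and 133 lower in hsp70-4c. A group of 21 genes was at least 16-fold higher in hsp70-4c and 26 were at least 16-fold lower. In 762 of the 774 called genes every hsp70-4c library lay on 1 side of every hsp70-1c library, whereas 2428 of all 10764 genes tested showed such a separation (22.6%). The direction of all 774 was kept when any 1 of the 6 libraries was left out, and 415 of them, 231 with at least 2-fold, were called each time. The plot of differences by level shows that the widest gaps lay among genes at low to middle levels, with a few abundant genes such as Rh6 among them.

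**Figure D1:**
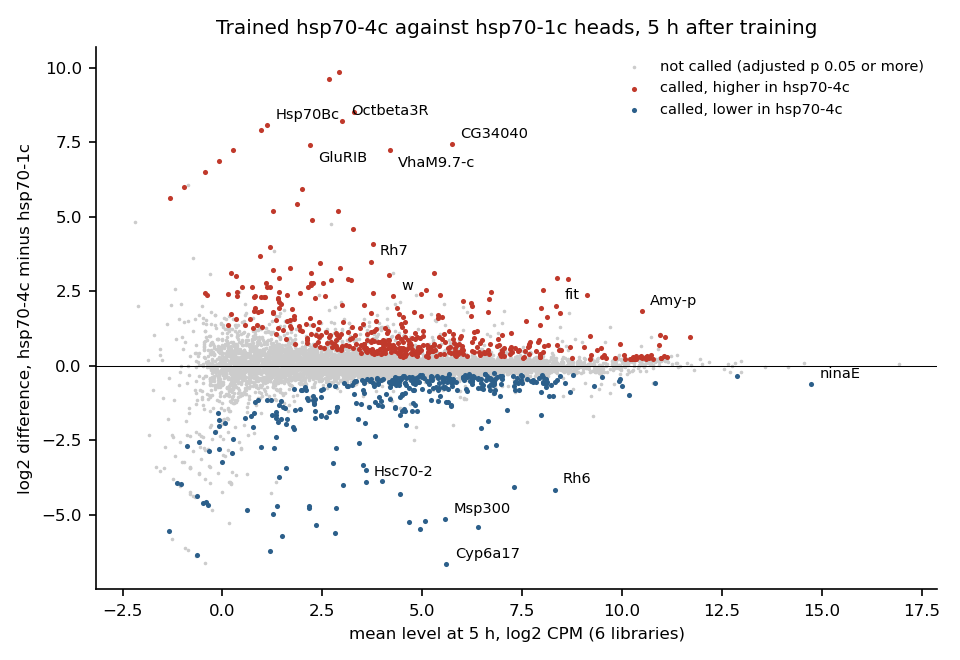
Log2 difference between hsp70-4c and hsp70-1c (vertical axis) against the mean level of the 6 libraries in log2 CPM (horizontal axis), 1 point per gene tested at 5 h; red genes were called higher in hsp70-4c, blue genes lower, and grey genes were not called. The 431 red and 343 blue points spread over all levels, and Octbeta3R, GluRIB, Cyp6a17 and Rh6 are among the farthest from 0.

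The 6 libraries held 7023607 to 10344890 reads assigned to genes and between 13067 and 14205 genes with a read, and 62.3 to 66.3% of their reads fell in no annotated feature. Levels are given in CPM, read counts scaled to a library of 1000000 reads, with TMM scaling over all 32 libraries. Head markers were present in both strains: the neuronal nSyb stood at 537 to 564 CPM in hsp70-4c and 595 to 610 CPM in hsp70-1c, and the glial repo at 23.6 to 27.4 CPM in hsp70-4c and 24.2 to 25.7 CPM in hsp70-1c. The photoreceptor phospholipase norpA stood at 289 to 318 CPM in hsp70-4c and 297 to 413 CPM in hsp70-1c. The neuronal elav was near 0, with 3 to 6 reads per library in hsp70-4c and 0 to 9 in hsp70-1c. In bulk heads, fewer cells of a type and less RNA per cell cannot be told apart. Replicate 2 of hsp70-1c stood apart in the genes of a testis list, whose summed level there was 41.2 CPM against 4.39 and 8.48 CPM in the other hsp70-1c libraries and 4.79 to 5.48 CPM in hsp70-4c; without that library 518 genes were called, 508 of them among the 774.

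Reads assigned to 1 inducible Hsp70 copy separated the strains. Hsp70Bc (3R:12509076-12511461, dm6) had 3.82, 4.79 and 4.38 CPM in the hsp70-4c libraries and 0 CPM in each hsp70-1c library, which is 98 reads against 0. Against a floor of 3 counts summed over the hsp70-1c group it was at least 38.4-fold higher in hsp70-4c (edgeR adjusted p 1.10e-06). It also stood at 0 in the 5 h libraries of w+hsp70- and hsp70-. The other 5 inducible copies were at or near 0 in both strains and did not pass the filter on low counts, and because the copies are near-identical the assignment of reads to 1 copy is uncertain. Summed over the 6 copies the level was 4.51 ± 0.512 CPM in hsp70-4c and 0.102 ± 0.096 CPM in hsp70-1c (SD, n = 3 each). The sum in naive hsp70-4c flies was 5.26 ± 0.743 CPM (SD, n = 4), so the reads were there without training.

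The gene next to Hsp70Bc on the chromosome had the same pattern at a higher level. Octbeta3R (3R:12511570-12548229), which encodes a G protein-coupled octopamine receptor, had 15.3, 17.8 and 14.8 CPM in hsp70-4c and 0.115, 0 and 0 CPM in hsp70-1c. A single read in all 3 hsp70-1c libraries stands against 361 in hsp70-4c, a ratio of 424 with a 95% counting interval of 75.6 to 16798. The log2 difference was 8.23 (SE 0.37, edgeR adjusted p 1.14e-12). Octbeta3R overlaps Hug, a neuropeptide gene on the other strand, which did not pass the test and had 1393 reads in hsp70-4c and 1531 in hsp70-1c. Within 500 kb of the Hsp70 copies 6 of 162 genes tested were called (3.70%), and within 1000 kb 17 of 261 (6.51%), beside 7.19% of all genes. The other 4 within 500 kb were CG12224, Tk, GstD5 and CG11656, of which CG12224 lost its call without any 1 of the 6 libraries and GstD5 without hsp70-1c replicate 1 or 2 or hsp70-4c replicate 1 (edgeR adjusted p 0.059 to 0.194).

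The eye pigment transporter gene w (white), a common marker of inserted or engineered chromosomes, also differed. It had 21.98, 33.5 and 40.3 CPM in hsp70-4c and 7.62, 6.01 and 5.30 CPM in hsp70-1c, a log2 difference of 2.34 (SE 0.17, edgeR adjusted p 3.33e-09). The w+hsp70- strain had 84.1, 75.6 and 72.9 CPM and hsp70- had 0.123, 0.129 and 0.159 CPM at 5 h, so that hsp70-4c and hsp70-1c both lay between them. The gene overlaps kirre on the other strand, which averaged 11.5 CPM in each strain and was not called. Of 22 eye pigment genes tested, 2 were higher and 1 lower in hsp70-4c, beside 4.00% higher and 3.19% lower of all genes. The others were pr, a pteridine synthesis gene, with 187, 162 and 175 CPM in hsp70-4c and 123, 109 and 128 CPM in hsp70-1c, and st, the partner of white in the brown pigment transporter, with 13.7, 12.6 and 14.8 CPM in hsp70-4c and 22.7, 23.3 and 22.7 CPM in hsp70-1c.

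Several membrane receptors and transporters were found in 1 strain and almost not in the other. GluRIB (3L:9251978-9288522), an AMPA-type glutamate receptor subunit, had 7.63, 11.3 and 8.40 CPM in hsp70-4c and 0.115, 0 and 0 CPM in hsp70-1c, 205 reads against 1. It was the only called member among 17 glutamate signalling genes tested, as Octbeta3R was among 11 octopamine and tyramine genes. Of all genes, 7.19% were called. The Methuselah-like receptor gene mthl8 (3L:22428-26308) had 13.6, 18.6 and 26.4 CPM in hsp70-4c and 0, 0 and 0.133 CPM in hsp70-1c. VhaM9.7-c (3L:4186018-4186865), a small subunit of the vacuolar proton pump, had 30.9, 36.9 and 40.4 CPM in hsp70-4c and 0.346, 0.191 and 0.133 CPM in hsp70-1c. Its log2 difference was 7.23 (SE 0.28, edgeR adjusted p 1.57e-13). A rule that named these 3 genes required that the groups did not overlap.

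Other genes near 0 in hsp70-1c encode proteins of unrelated kinds. CG43149 (3L:53873-54751) had 16.8, 16.1 and 12.3 CPM in hsp70-4c and 0 CPM in each hsp70-1c library, at least 133-fold higher against the floor. EMC2B (3R:16990334-16991878), a subunit gene of the ER membrane protein complex, had 12.1, 14.4 and 11.7 CPM in hsp70-4c and 0 CPM in hsp70-1c, at least 112-fold higher. EMC2A, named for the same subunit, went the other way. It averaged 30.1 CPM in hsp70-4c and 74.9 CPM in hsp70-1c (log2 difference -1.31). Whether reads of EMC2A and EMC2B were divided in error was not tested. Lsp1gamma (3L:66430-68995), a larval serum storage protein, had 4.34, 5.37 and 1.95 CPM in hsp70-4c and 0 CPM in hsp70-1c, at least 33.7-fold higher. CG43149 and Lsp1gamma were also at 0 in every w+hsp70- and hsp70- library at 5 h, and EMC2B was at or below 0.370 CPM there.

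Aven (X:12628370-12629640), named for an inhibitor of cell death, had 8.03, 7.98 and 7.54 CPM in hsp70-4c and 0, 0.191 and 0.133 CPM in hsp70-1c. sd (scalloped, X:15804370-15827682), the DNA-binding partner of Yorkie in Hippo signalling, had 12.1, 14.8 and 16.1 CPM in hsp70-4c and 0.346, 0.382 and 0.398 CPM in hsp70-1c, with a log2 difference of 5.21 (SE 0.27, edgeR adjusted p 2.14e-11). Osi2, of the Osiris family of insect membrane proteins, averaged 9.23 ± 1.66 CPM in hsp70-4c and 0.280 ± 0.178 CPM in hsp70-1c. CG34447 averaged 7.12 ± 2.04 CPM in hsp70-4c and 0.134 ± 0.144 CPM in hsp70-1c and the noncoding lncRNA:CR32690 18.7 ± 6.55 CPM in hsp70-4c and 0.687 ± 0.976 CPM in hsp70-1c (SD, n = 3 each). The rule that named these 5 genes required all hsp70-4c libraries to be above all hsp70-1c libraries.

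CG34040 (2R:21832501-21833551) reached a higher level in hsp70-4c than the named genes above that were near 0 in hsp70-1c. It had 165, 65.3 and 90.9 CPM in hsp70-4c and 0.462, 0.668 and 0.663 CPM in hsp70-1c, a log2 difference of 7.45 (SE 0.70, edgeR adjusted p 3.94e-06). Its neighbours CG4363 and CG4377 were higher too: CG4363 had 1071, 489 and 581 CPM in hsp70-4c and 81.04, 98.1 and 109 CPM in hsp70-1c. CG4377 averaged 155 CPM in hsp70-4c and 44.1 CPM in hsp70-1c, and its call was lost without replicate 1, 2 or 3 of hsp70-1c or replicate 1 of hsp70-4c (edgeR adjusted p 0.052 to 0.115).

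Other genes were low in hsp70-4c and well expressed in hsp70-1c. Msp300 (2L:5100877-5207002), a giant nesprin that ties nuclei to the cytoskeleton, had 3.03, 1.89 and 2.80 CPM in hsp70-4c and 92.4, 111 and 75.4 CPM in hsp70-1c. Its log2 difference was -5.15 (SE 0.29, edgeR adjusted p 1.46e-09). Msp300 was named by a rule that required no overlap between the hsp70-4c and hsp70-1c libraries. The small RNA genes annotated inside it did not move as 1 unit: sncRNA:158, near its end, had 1.45, 2.32 and 1.46 CPM in hsp70-4c and 67.2, 77.9 and 49.7 CPM in hsp70-1c, whereas sncRNA:765 had 26.8, 35.7 and 34.9 CPM in hsp70-4c and 8.77, 8.02 and 8.88 CPM in hsp70-1c, and sncRNA:128 27.9, 38.3 and 36.9 CPM in hsp70-4c and 12.01, 11.5 and 9.94 CPM in hsp70-1c. All lie on the strand of Msp300, so how overlapping reads were shared between them is uncertain. The P450 genes Cyp28d2 (log2 difference -1.53, SE 0.33) and Cyp28d1 (-0.88, SE 0.081) come next on the arm and were also lower in hsp70-4c.

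Further genes lower in hsp70-4c were mostly known by number. CG13794 (2L:7719847-7722823) had 1.84, 1.31 and 0.730 CPM in hsp70-4c and 44.6, 50.1 and 53.7 CPM in hsp70-1c (log2 difference -5.25, SE 0.19, edgeR adjusted p 6.54e-14). CG12934 (2R:10648888-10649830) had 4.08, 3.63 and 3.77 CPM in hsp70-4c and 142, 144 and 206 CPM in hsp70-1c. CG32640 (X:13178005-13178523) had 0.263, 0.145 and 0.365 CPM in hsp70-4c and 12.8, 14.9 and 13.4 CPM in hsp70-1c. The rule that named these 3 genes required groups that did not overlap. CG4914 averaged 0.308 ± 0.303 CPM in hsp70-4c and 8.59 ± 0.161 CPM in hsp70-1c, CG7017 0.464 ± 0.358 CPM in hsp70-4c and 13.8 ± 2.38 CPM in hsp70-1c, and c-cup, which is transcribed in maturing spermatids, 0.0844 ± 0.0733 CPM in hsp70-4c and 5.48 ± 0.258 CPM in hsp70-1c (SD, n = 3 each). LysP, a lysozyme, had 0.395, 0 and 0.243 CPM in hsp70-4c and 3.93, 6.49 and 19.4 CPM in hsp70-1c. Its edgeR adjusted p was 0.0366; the call was kept without replicate 1 of hsp70-1c and lost without any 1 of the other 5 libraries (0.057 to 0.123). It lies inside mwh, on the other strand, which had a log2 difference of -0.55 and was also called.

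Chaperones other than inducible Hsp70 were called in both directions. Of 24 tested, 1 was higher and 2 were lower in hsp70-4c, beside 4.00% higher and 3.19% lower of all genes. The median log2 difference of the 24 was -0.04 beside 0.0045 for all genes tested. Hsc70-2 (3R:13044759-13047388), a constitutive Hsp70 relative, had 0.790, 1.74 and 1.95 CPM in hsp70-4c and 25.98, 23.6 and 18.03 CPM in hsp70-1c. Its log2 difference was -3.89 (SE 0.26, edgeR adjusted p 1.62e-09). The adjacent CG31157 had 0.395, 0 and 0.487 CPM in hsp70-4c and 11.5, 10.7 and 3.84 CPM in hsp70-1c, and the next gene, CG7966, had 44.2, 34.5 and 51.1 CPM in hsp70-4c and 162, 160.0 and 146 CPM in hsp70-1c. lncRNA:Hsromega, a noncoding RNA of the heat shock response, had 165, 173 and 197 CPM in hsp70-4c and 251, 254 and 278 CPM in hsp70-1c. The ER chaperone Gp93 had a log2 difference of 0.41 (SE 0.11, edgeR adjusted p 0.0183), and its call was lost without hsp70-1c replicate 3 or hsp70-4c replicate 2 or 3 (0.080 to 0.109).

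The rhodopsins, the light receptors of the eye and ocelli, differed as a whole family. All 7 were called, 3 higher and 4 lower in hsp70-4c, beside 4.00% higher and 3.19% lower of all genes. The counts of 3 and 4 held whichever of the 6 libraries was left out. Photoreceptors of the compound eye each make 1 main rhodopsin: the outer cells ninaE, the inner ones Rh3 with Rh5 or Rh4 with Rh6 in the paired cells of an ommatidium, and the ocelli Rh2. Rh6 (3R:15483158-15484699), the green-sensitive one of the inner cells, had 28.7, 30.8 and 40.9 CPM in hsp70-4c and 611, 597 and 599 CPM in hsp70-1c. The log2 difference was -4.16 (SE 0.17, edgeR adjusted p 5.00e-13), with the hsp70-4c libraries all near a level that no hsp70-1c library approached. Naive flies showed -4.35 and flies at 24 h -4.15 on the same scale.

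Rh7 (3L:12164205-12175482), a rhodopsin found also in brain clock neurons, went the other way. It had 18.6, 23.4 and 30.9 CPM in hsp70-4c and 3.002, 2.67 and 0.530 CPM in hsp70-1c, a log2 difference of 3.50 (SE 0.41, edgeR adjusted p 2.20e-05). In w+hsp70- it had 26.3, 25.2 and 29.8 CPM and in hsp70- 25.2, 27.3 and 36.3 CPM, so it was hsp70-1c that lay apart from the other strains. The remaining 5 genes differed by less than 2-fold. Rh3, with 829.7, 891 and 829.2 CPM in hsp70-4c and 569, 563 and 574 CPM in hsp70-1c, was higher in hsp70-4c, as was Rh5, with 441, 502 and 566 CPM in hsp70-4c and 369.5, 303 and 315 CPM in hsp70-1c. The major rhodopsin ninaE had 19643, 23016 and 22078 CPM in hsp70-4c and 32222, 32576 and 34158 CPM in hsp70-1c and was lower, with a log2 difference of -0.60 (SE 0.10, edgeR adjusted p 1.88e-04). Rh4 averaged 844 CPM in hsp70-4c and 1142 CPM in hsp70-1c and Rh2 232 CPM in hsp70-4c and 319.6 CPM in hsp70-1c, and both were lower in hsp70-4c. The groups do not overlap in any member in the plot of rhodopsin levels. The same held for 762 of the 774 called genes and for 22.6% of all genes tested.

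**Figure D2:**
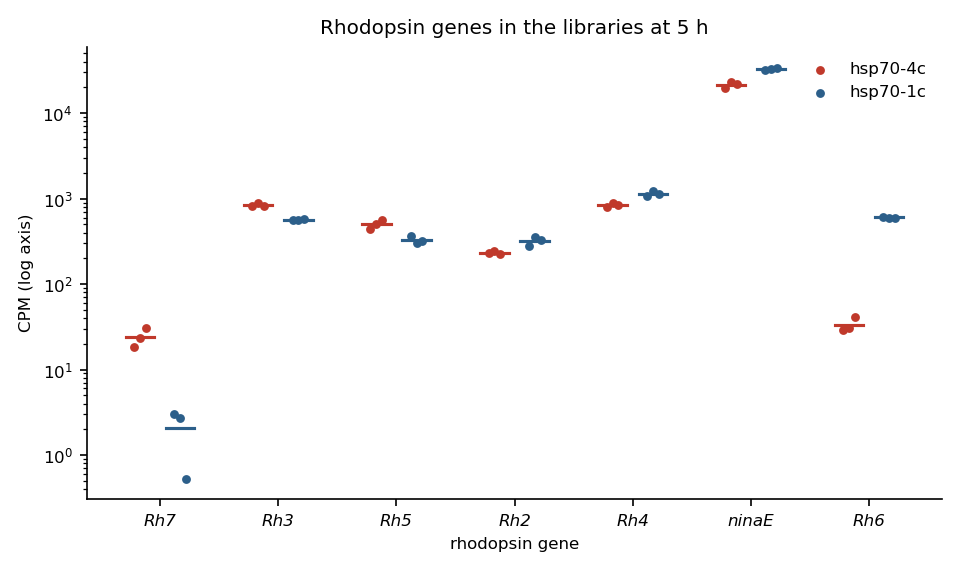
CPM on a log axis (vertical) of the 7 rhodopsin genes (horizontal) in the 3 hsp70-4c libraries (red) and the 3 hsp70-1c libraries (blue) at 5 h, each point a library and each bar the group mean. Rh6 averaged 33.4 CPM in hsp70-4c and 602 CPM in hsp70-1c, Rh7 averaged 24.3 CPM in hsp70-4c and 2.07 CPM in hsp70-1c, and the other 5 genes differ by less than 2-fold.

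Of 26 other phototransduction genes tested, none was higher and 2 were lower in hsp70-4c, beside 4.00% higher and 3.19% lower of all genes. The median log2 difference of the 26 was -0.12. ninaD, a scavenger receptor for the carotenoids from which the visual chromophore is made, had 2.37, 1.74 and 1.95 CPM in hsp70-4c and 25.5, 17.9 and 18.6 CPM in hsp70-1c (log2 difference -3.33, SE 0.22, edgeR adjusted p 1.18e-09). Arr1, the arrestin gene beside it, averaged 6627 CPM in hsp70-4c and 8400.1 CPM in hsp70-1c. The call of Arr1 was lost without replicate 2 or 3 of hsp70-1c or replicate 1 or 3 of hsp70-4c (edgeR adjusted p 0.053 to 0.085).

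Counts in the smell and taste lists were small, and stand beside 4.00% higher and 3.19% lower, or 7.19% called, of all genes. Of 34 odorant-binding proteins tested, 2 were higher and 2 lower in hsp70-4c. Obp56e had 119, 116 and 133 CPM in hsp70-4c and 31.7, 31.8 and 27.3 CPM in hsp70-1c, and Obp19b averaged 70.7 ± 9.39 CPM in hsp70-4c and 31.4 ± 3.54 CPM in hsp70-1c. Obp99a averaged 1.23 ± 0.156 CPM in hsp70-4c and 4.80 ± 0.471 CPM in hsp70-1c, and Obp84a 49.6 ± 12.96 CPM in hsp70-4c and 88.6 ± 8.11 CPM in hsp70-1c (SD, n = 3 each). Of 25 gustatory and ionotropic receptors, 3 were higher and none lower. They were Ir85a and the neighbours Ir75a and Ir75b, receptors of acids in the antenna: Ir75a had 7.90, 15.7 and 25.4 CPM in hsp70-4c and 2.19, 2.48 and 1.99 CPM in hsp70-1c, and Ir75b 6.97, 9.87 and 17.9 CPM in hsp70-4c and 1.15, 1.43 and 2.25 CPM in hsp70-1c. Ir85a was not called when all 32 libraries were fitted together (edgeR adjusted p 0.390). Of 41 odorant receptors, Or71a (log2 difference 2.36, SE 0.36) and Or45b (1.52, SE 0.32) were higher, and Or43b (-0.39, SE 0.10) was lower. Reads could be shared between overlapping genes here: Or45b overlaps asRNA:CR45281 on the other strand, which was also higher, and Obp84a overlaps Dtwd2 on the other strand, which was also lower. The call of Or43b was lost without hsp70-1c replicate 1 or hsp70-4c replicate 1 or 2 (edgeR adjusted p 0.071 to 0.135).

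Lists of signalling in the brain had few or no members past the threshold, which 7.19% of all genes passed. By the edgeR test no member was called among 21 cAMP and memory genes (1 with an unadjusted p under 0.05), 21 dopamine and serotonin genes (3), 23 acetylcholine and GABA genes (4), 21 genes of synaptic release (2), 17 potassium channels (0) and 18 circadian genes (1), and DESeq2 also called 0 in each. Their median log2 differences lay between -0.10 and 0.02. The widest range was that of the synaptic release genes, from -0.37 to 0.62. In the dopamine and serotonin list, the dopamine transporter gene DAT was called without hsp70-1c replicate 3 (edgeR adjusted p 0.0479). Among 15 activity-regulated genes, Arc1, whose capsid-like protein moves RNA between cells at synapses, was lower. It had 73.8, 66.7 and 104 CPM in hsp70-4c and 177, 186 and 137 CPM in hsp70-1c (log2 difference -1.02, SE 0.24, edgeR adjusted p 0.0123). Its call was lost without hsp70-1c replicate 2 or hsp70-4c replicate 1 or 2 (0.061 to 0.066), and in naive flies the difference was -1.37 (edgeR adjusted p 2.40e-04).

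Of 36 neuropeptide genes tested, 4 were higher and 2 lower in hsp70-4c, beside 4.00% higher and 3.19% lower of all genes. Dh44 (3R:9638182-9650706), a diuretic hormone that also acts in feeding and daily activity, had 28.4, 30.04 and 27.99 CPM in hsp70-4c and 62.3, 58.1 and 56.3 CPM in hsp70-1c. Its log2 difference was -1.03 (SE 0.10, edgeR adjusted p 3.83e-07). The gene Fst lies within the Dh44 locus on the other strand and was higher in hsp70-4c, with 1334 reads in the 3 hsp70-4c libraries and 257 in the 3 hsp70-1c libraries, so these 2 genes differed in opposite directions. Nplp4, a neuropeptide-like precursor, averaged 5.98 ± 1.06 CPM in hsp70-4c and 14.2 ± 2.04 CPM in hsp70-1c (SD, n = 3 each). Tk, the tachykinin precursor, had 100.0, 87.5 and 84.6 CPM in hsp70-4c and 63.3, 67.5 and 69.3 CPM in hsp70-1c. CCHa2, a nutrient-dependent peptide that promotes release of insulin-like peptides, had 247, 149 and 123 CPM in hsp70-4c and 72.4, 81.2 and 102 CPM in hsp70-1c, a log2 difference of 1.03 (SE 0.23, edgeR adjusted p 0.00778), and was not called when the 6 libraries were fitted alone (0.123). The other called members were Dsk, the cholecystokinin-like peptide (147 CPM in hsp70-4c and 107 CPM in hsp70-1c), and Ilp8, a relaxin-like hormone (1.27 CPM in hsp70-4c and 0.236 CPM in hsp70-1c). The call of Dsk was lost without hsp70-1c replicate 1 or 2 or hsp70-4c replicate 3 (edgeR adjusted p 0.065 to 0.078), and that of Ilp8 without replicate 2 of either strain (0.099 to 0.105).

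Genes of the cytochrome P450 family, oxidases that act on toxins and hormones, were called in both directions, with 8 higher and 10 lower of 78 tested beside 4.00% and 3.19% of all genes. Several of them sit in a cluster of Cyp6a genes on 2R. Cyp6a17 (2R:14873953-14875739), which has been tied to temperature preference in flies, had 2.63, 0.145 and 0 CPM in hsp70-4c and 79.2, 116 and 93.99 CPM in hsp70-1c, a log2 difference of -6.67 (SE 0.47, edgeR adjusted p 8.01e-08). The next gene, Cyp6a23, had 72.5, 81.8 and 66.4 CPM in hsp70-4c and 13.2, 16.2 and 12.99 CPM in hsp70-1c and so went the other way (2.38, SE 0.18). These 2 genes are close copies, and the share of reads assigned to each is uncertain. Their flanking neighbours were lower in hsp70-4c: Cyp6a22 averaged 9.84 CPM in hsp70-4c and 20.2 CPM in hsp70-1c, and Cyp6a19 0.0844 CPM in hsp70-4c and 2.96 CPM in hsp70-1c. Cyp6a8, farther along the cluster, had 0.790, 1.74 and 1.46 CPM in hsp70-4c and 50.2, 81.2 and 48.8 CPM in hsp70-1c (log2 difference -5.49, SE 0.42). The family's counts were 8 higher and 8 to 9 lower when any 1 library was left out.

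Counts of calls in other detoxification families stand beside 4.00% higher and 3.19% lower, or 7.19% called, of all genes. Of 32 glutathione S-transferases, 2 were higher and 1 lower, and the calls of these 3 (GstD5, GstS1 and GstE9) were lost without hsp70-4c replicate 1 and under 2 or 3 more of the 6 single-library omissions (edgeR adjusted p 0.052 to 0.187). Of 29 UDP-glycosyltransferases, Ugt37B1 alone was called, with 23.7, 22.9 and 16.8 CPM in hsp70-4c and 7.50, 9.83 and 4.77 CPM in hsp70-1c. The metal-binding metallothionein gene MtnB had 8.42, 12.3 and 21.2 CPM in hsp70-4c and 0.924, 1.72 and 1.59 CPM in hsp70-1c. It was singled out after its values were seen, because the other strains lay nearer to hsp70-4c on the scale of log2 CPM with 0.1 added. They averaged 4.59 CPM in w+hsp70- and 5.16 CPM in hsp70-, which is between the groups and in plain CPM closer to hsp70-1c.

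Immune genes were called in both directions, and the counts of each list stand beside 4.00% higher and 3.19% lower of all genes. Of 16 antimicrobial peptide genes tested, none was higher and 2 were lower, 14 had a negative difference, and the median was -0.86. Drsl5, a drosomycin relative, had 895, 842 and 603 CPM in hsp70-4c and 1362, 1589 and 1687 CPM in hsp70-1c (log2 difference -0.98, SE 0.15, edgeR adjusted p 1.31e-04). Def, the defensin, had 20.1, 24.8 and 43.8 CPM in hsp70-4c and 62.6, 82.3 and 81.8 CPM in hsp70-1c. Its call held only without hsp70-4c replicate 3 and was lost without any 1 of the other 5 libraries (edgeR adjusted p 0.055 to 0.169). Of 14 bomanin and Daisho peptides, short products of Toll signalling, 2 were higher: BomBc2 averaged 644 ± 93.4 CPM in hsp70-4c and 415 ± 45.5 CPM in hsp70-1c, and BomS3 782 ± 114.9 CPM in hsp70-4c and 548 ± 16.04 CPM in hsp70-1c (SD, n = 3 each). BomS3 lost its call without hsp70-4c replicate 3 (0.090).

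Among 24 peptidoglycan recognition and immune signalling genes, 1 was higher and 4 were lower, again beside 4.00% higher and 3.19% lower of all genes. PGRP-LA (3L:9334332-9338336), a receptor-like member, had 73.7, 68.6 and 71.9 CPM in hsp70-4c and 115.0, 109 and 97.8 CPM in hsp70-1c. PGRP-LC, the main membrane sensor of the Imd pathway, had 33.03, 35.8 and 34.6 CPM in hsp70-4c and 66.96, 64.7 and 39.1 CPM in hsp70-1c, and PGRP-LF, its negative regulator, averaged 21.9 CPM in hsp70-4c and 32.7 CPM in hsp70-1c. PGRP-LC was not called when the 6 libraries were fitted alone (edgeR adjusted p 0.080). These 3 genes lie side by side on 3L, in a run of called genes that begins with GluRIB. Rel, the NF-kappaB factor of the same pathway, averaged 67.5 ± 4.79 CPM in hsp70-4c and 88.997 ± 8.12 CPM in hsp70-1c (SD, n = 3 each), and shares its strand with the overlapping Nmdmc, which was lower too. The amidase PGRP-SC2, made mainly in gut, had 238, 161 and 134 CPM in hsp70-4c and 17.8, 29.2 and 50.2 CPM in hsp70-1c. Calls were lost without hsp70-1c replicate 2 or hsp70-4c replicate 1 for all of PGRP-LF, Rel and PGRP-SC2, and for PGRP-LF and PGRP-SC2 also without hsp70-1c replicate 1 and for PGRP-LF without hsp70-4c replicate 2 (edgeR adjusted p 0.072 to 0.145). Of 13 haemocyte markers, the scavenger receptor Sr-CI alone was called, a share near the 7.19% of all genes, with 21.3, 28.3 and 19.96 CPM in hsp70-4c and 44.6, 40.2 and 35.8 CPM in hsp70-1c.

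The secreted Turandot stress peptides were called higher in hsp70-4c in 2 of the 4 members tested, beside 4.00% of all genes. TotA had 647, 627 and 486 CPM in hsp70-4c and 107, 44.1 and 78.2 CPM in hsp70-1c, a log2 difference of 2.95 (SE 0.72, edgeR adjusted p 0.0205). TotX averaged 57.9 ± 12.4 CPM in hsp70-4c and 31.6 ± 8.80 CPM in hsp70-1c (SD, n = 3 each). The call of TotA was lost without hsp70-1c replicate 2 or 3 or hsp70-4c replicate 1 (0.053 to 0.107 by edgeR), and that of TotX without hsp70-1c replicate 1 or 2 or hsp70-4c replicate 2 (0.103 to 0.117).

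Of 18 genes of sugar handling tested, 4 were higher and 1 lower in hsp70-4c, beside 4.00% higher and 3.19% lower of all genes, with a median log2 difference of 0.15. The amylases Amy-d and Amy-p, which digest starch, are near-identical neighbours whose reads could be divided in error. Amy-p had 2478, 2389 and 1921 CPM in hsp70-4c and 611, 731 and 566 CPM in hsp70-1c (log2 difference 1.84, SE 0.35, edgeR adjusted p 0.00314). Amy-d had 1028, 1008 and 787 CPM in hsp70-4c and 178, 210.4 and 161 CPM in hsp70-1c, and neither gene's groups overlapped. Pgm1, a phosphoglucomutase of glycogen use, had 215, 203 and 195 CPM in hsp70-4c and 145, 144 and 137 CPM in hsp70-1c. The glucosidase tobi had 648, 269 and 345 CPM in hsp70-4c and 127, 144 and 138 CPM in hsp70-1c, and its call was lost without hsp70-4c replicate 1 or any 1 of the hsp70-1c libraries (edgeR adjusted p 0.060 to 0.101). Tps1, which makes the blood sugar trehalose, was the lower member, with 252, 204 and 214 CPM in hsp70-4c and 347, 327 and 316 CPM in hsp70-1c.

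The summed level of 45 gut enzyme genes was 11727 to 20695 CPM in hsp70-4c and 7045.5 to 10019 CPM in hsp70-1c, and without both amylases it was 9019 to 17189 CPM in hsp70-4c and 6256 to 9291 CPM in hsp70-1c; 3 of the 45 genes were at 0 in all 3 libraries of each strain at 5 h. In naive flies the sums overlapped, at 11666 to 22901 CPM in hsp70-4c and 7628 to 32303 CPM in hsp70-1c, and so they did at 24 h, at 10194 to 18965 CPM in hsp70-4c and 6947 to 15582 CPM in hsp70-1c. At 5 h the sums in the other strains were 19164 to 20612 CPM in w+hsp70- and 9906 to 30720.0 CPM in hsp70-. Of 40 tested, 3 were higher (Amy-d, Amy-p and the maltase Mal-A6) and none was lower, beside 4.00% higher and 3.19% lower of all genes. The median log2 difference of the 40 was 0.84. The call of Mal-A6 was lost when any 1 of the 6 libraries was left out (edgeR adjusted p 0.065 to 0.160). Whether gut tissue carried over with the heads has a part in these values was not tested.

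Of 10 genes of methionine metabolism tested, 3 were lower in hsp70-4c and none was higher, beside 4.00% higher and 3.19% lower of all genes. MsrA, which repairs oxidised methionine in proteins, had 97.8, 126 and 139 CPM in hsp70-4c and 429.6, 446 and 271 CPM in hsp70-1c, a log2 difference of -1.65 (SE 0.18, edgeR adjusted p 4.17e-06). Sam-S, which makes the methyl donor S-adenosylmethionine, had 273, 302 and 330.4 CPM in hsp70-4c and 548, 443 and 376 CPM in hsp70-1c. Ahcy, which removes the product of methylation, averaged 124 ± 42.9 CPM in hsp70-4c and 218 ± 52.2 CPM in hsp70-1c (SD, n = 3 each), and its call was lost without replicate 1 or 2 of either strain (edgeR adjusted p 0.142 to 0.181).

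In the fat body and storage list, 3 of 18 members tested were higher and 1 lower, beside 4.00% higher and 3.19% lower of all genes. Besides Lsp1gamma and fit, the yolk protein Yp3 averaged 60.4 ± 5.32 CPM in hsp70-4c and 39.99 ± 2.28 CPM in hsp70-1c (SD, n = 3 each). Lsp1alpha, another larval serum protein, had 1.18, 1.02 and 1.58 CPM in hsp70-4c and 14.9, 14.2 and 7.69 CPM in hsp70-1c and so ran against Lsp1gamma. Among 8 genes of juvenile hormone turnover, the esterase duplicate Jhedup was higher (0.71, SE 0.15, log2 difference) and the epoxide hydrolase Jheh3 lower (-0.73, SE 0.17). Jhedup was not called when all 32 libraries were fitted together (edgeR adjusted p 0.061). Jheh3 lost its call without hsp70-4c replicate 3 (edgeR adjusted p 0.062).

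Of 32 cuticular protein genes tested, 10 were higher and 1 lower in hsp70-4c, beside 4.00% higher and 3.19% lower of all genes, and the median log2 difference was 0.54. Cpr47Ea, Cpr47Ee and Cpr47Ef are neighbours on 2R and all were higher: Cpr47Ee had 45.8, 40.5 and 44.1 CPM in hsp70-4c and 20.4, 23.4 and 21.7 CPM in hsp70-1c. Cpr76Bc had 22.5, 23.2 and 17.2 CPM in hsp70-4c and 11.5, 10.4 and 12.6 CPM in hsp70-1c. The lower member was Cpr62Bb, with 17.8, 12.9 and 10.5 CPM in hsp70-4c and 30.02, 37.7 and 50.5 CPM in hsp70-1c, while its neighbour Cpr62Ba averaged 3.23 CPM in hsp70-4c and 0.656 CPM in hsp70-1c and was higher. With any 1 library left out, 9 or 10 members were higher.

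Of 81 cytoplasmic ribosomal protein genes tested, 27 were called higher, 1 was called lower and 53 were not called, beside 4.00% higher and 3.19% lower of all genes. Their median log2 difference was 0.20, and 79 had a positive value. RpL40, which is made as a fusion with ubiquitin, had 1946, 1866 and 1860.0 CPM in hsp70-4c and 1412, 1494 and 1558 CPM in hsp70-1c (log2 difference 0.35, SE 0.063, edgeR adjusted p 6.78e-04). RpL35A had 1204, 1159.6 and 1204 CPM in hsp70-4c and 915, 937 and 951 CPM in hsp70-1c. The lower member, RpS15Ab, is 1 of 2 near copies of its gene and averaged 37.4 ± 0.810 CPM in hsp70-4c and 54.97 ± 5.89 CPM in hsp70-1c (SD, n = 3 each). The count of 27 was 11 to 16 when any 1 of the 6 libraries was left out, 13 with no filter on low counts and 26 with the size factors of DESeq2; it was 9 when the 6 libraries were fitted alone, and was 37 by DESeq2. In naive flies the same list had 2 higher and 1 lower, and a median of -0.01. For mitochondrial ribosomal protein genes the median was 0.01 and 2 of 70, mRpL50 and mRpS6, were higher.

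The remaining lists had 0 to 2 calls each, and their counts stand beside 7.19% of all genes called. TpnC73F, a troponin C of muscle, was the 1 called of 27 muscle genes, with 26.6, 28.6 and 37.7 CPM in hsp70-4c and 16.2, 16.3 and 15.8 CPM in hsp70-1c. bdl, an immunoglobulin-family adhesion protein made in glia of the eye, was lower, with 232, 211 and 190.0 CPM in hsp70-4c and 304, 298 and 335 CPM in hsp70-1c, and was 1 of 2 called among 10 glia markers. The other glial call was Indy, a citrate transporter. Single calls among 9 genes of iron handling, 11 neprilysin and ACE-like peptidases and 3 ovary genes tested were the transferrin Tsf3, Ance-3 and the chorion gene Cp15, all lower in hsp70-4c. The calls of Indy, Tsf3, Ance-3 and Cp15 were lost without hsp70-1c replicate 2 or hsp70-4c replicate 1, and under other single-library omissions for all but Ance-3 (edgeR adjusted p 0.053 to 0.232). The called members of 15 sex determination genes were fit and Yp3. COX4L, a subunit gene of cytochrome c oxidase, was the 1 called of 71 nuclear respiratory chain genes and was lower, at 0.648 CPM in hsp70-4c and 2.72 CPM in hsp70-1c, a call lost without hsp70-1c replicate 2 or hsp70-4c replicate 1 or 2 (edgeR adjusted p 0.053 to 0.152). No member was called among 22 mitochondrial genome genes (0 with an unadjusted p under 0.05), 7 neuron markers (1) or 10 testis genes (7), and DESeq2 called 0, 1 and 2 of them. The summed level of 9 neuron markers was 1309 to 1369 CPM in hsp70-4c and 1360 to 1598 CPM in hsp70-1c, that of 10 glia markers 2738 to 3395 CPM in hsp70-4c and 2912 to 3439 CPM in hsp70-1c, and that of 21 fat body genes 3053 to 4340 CPM in hsp70-4c and 3215 to 3852 CPM in hsp70-1c. The summed level of 27 muscle genes was 3859 to 4937 CPM in hsp70-4c and 4219 to 4986 CPM in hsp70-1c. The plot of calls by list shows how these lists stand beside the share of all genes called.

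**Figure D3:**
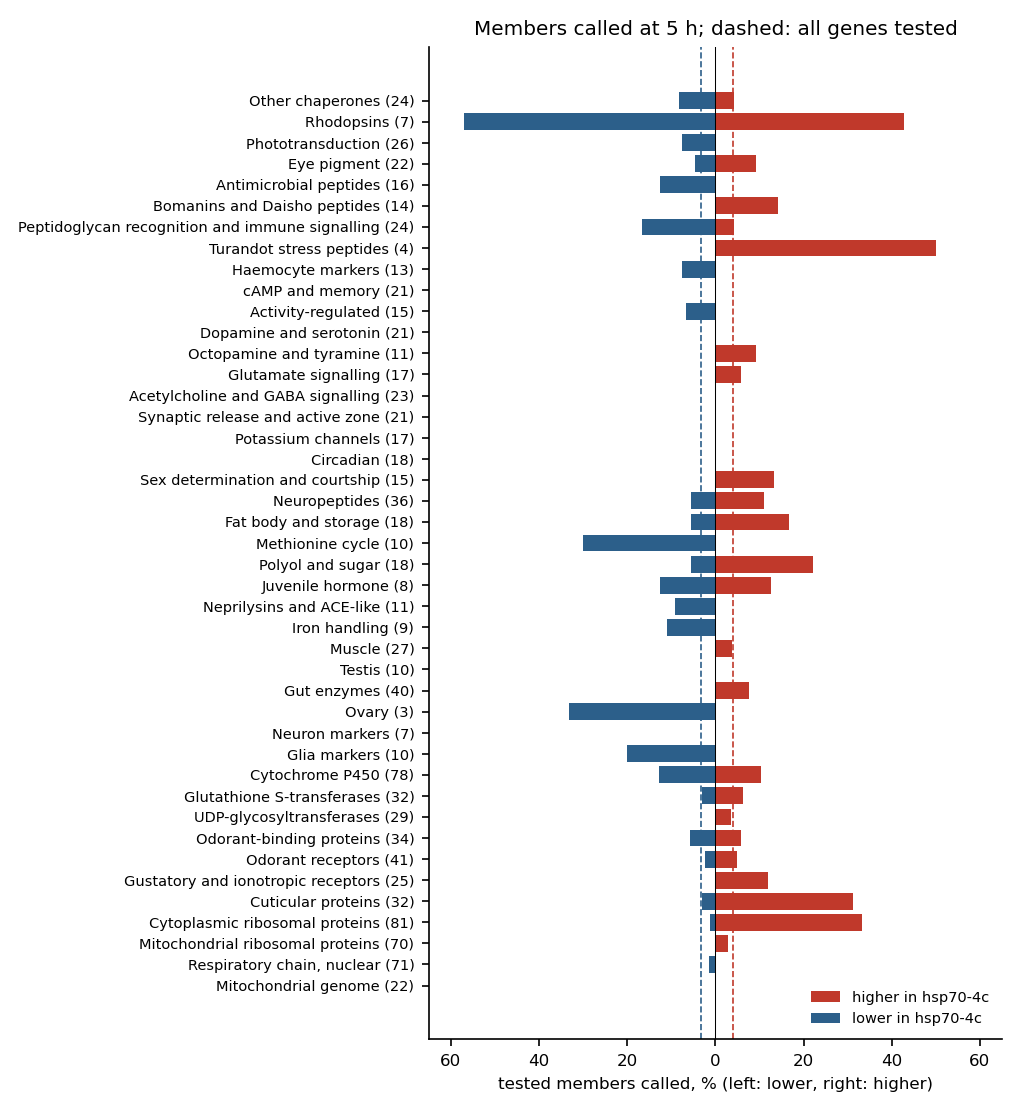
Percent of the tested members of each gene list called higher (red, to the right) and lower (blue, to the left) in hsp70-4c than in hsp70-1c at 5 h, with the number of members tested in parentheses; dashed lines mark the 4.00% higher and 3.19% lower of all genes tested. Rhodopsins, cuticular proteins and cytoplasmic ribosomal proteins reach far past the lines, while the cAMP and memory, dopamine and serotonin, synaptic release, potassium channel and circadian lists have no bar.

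Called genes were often neighbours on the chromosomes, which is given as a description with no test. A called gene had a called gene as its next tested neighbour in 233 of 761 cases (30.6%), and a gene that was not called had one in 1189 of 9790 cases (12.1%). The share called was 10.3% on 3L (212 of 2060), 7.91% on 2L, 7.12% on 2R, 6.97% on 3R, 3.39% on X (57 of 1680) and 3.12% on chromosome 4. Among the runs of at least 3 called neighbours were mthl8, CG43149 and Lsp1gamma at one end of 3L, all of which were near 0 in hsp70-1c. Other runs held genes of both directions, such as ninaD, lower in hsp70-4c, and beside it on 2L CG15153, with 23 reads in hsp70-4c and 0 in hsp70-1c.

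Strain differences were also measured in naive flies and at 24 h. The naive and 24 h libraries enter no 5 h mean, but they shared the filter and the estimate of spread behind the 5 h calls; with the 6 libraries at 5 h fitted alone 554 genes were called, 495 of them among the 774. In naive flies 1076 genes were called between the strains (10.0%), 441 higher (4.10%) and 635 lower (5.90%) in hsp70-4c. The overlap was 487 genes, 62.9% of the 5 h calls and 45.3% of the naive calls, and 485 of them had the same direction. At 24 h 641 genes were called (5.96%), 326 higher (3.03%) and 315 lower (2.93%), and 447 were shared, 57.8% of the 5 h calls and 69.7% of the 24 h calls, all 447 in the same direction. A set of 390 genes was called at all 3 times. Of the 774, 721 had the same sign in naive flies and 743 at 24 h. The 230 genes called at 5 h but at neither other time are not thereby shown to be particular to 5 h: the difference between the 5 h and the naive strain difference passed its own test in 2 of them.

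That direct test of the change in the strain difference between 5 h and naive flies called 5 of 10764 genes (0.0465%), 4 with a larger value at 5 h (0.0372%) and 1 with a smaller one (0.00929%), by edgeR. An unadjusted p under 0.05 was found for 946 genes. DESeq2 called 45, of which fit is shared. It gave no adjusted p for 7513 of the 10764 genes, among them the other 4, so its adjustment covered fewer genes than that of edgeR. Between 5 h and 24 h no gene was called (0.00%) by edgeR, with 406 at an unadjusted p under 0.05, and DESeq2 called 2.

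The most abundant of the 5 was fit (female-specific independent of transformer), a fat body gene that answers to protein feeding. It had 740.0, 503 and 321 CPM in hsp70-4c at 5 h and 105, 122 and 159.9 CPM in hsp70-1c. Naive flies had 111, 185, 192 and 105 CPM in hsp70-4c and 219, 241, 178 and 236 CPM in hsp70-1c, and at 24 h the values were 114.5, 121 and 132 CPM in hsp70-4c and 150.2, 133 and 136 CPM in hsp70-1c. The high values were thus those of hsp70-4c at 5 h, while every hsp70-1c library at 5 h lay below every naive hsp70-1c library. The difference of differences was 2.59 (SE 0.36, edgeR adjusted p 0.0106), and without hsp70-1c 5 h replicate 2 it was no longer called (0.077). With all 32 libraries in 1 fit it was not called either, nor were those of CG9616 and CG13563 (0.063 for each).

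CG14400 (2L:20856987-20857891) had 32.9, 35.1 and 30.9 CPM in hsp70-4c and 12.6, 8.12 and 8.88 CPM in hsp70-1c at 5 h, against 25.9, 30.4, 31.9 and 34.9 CPM in naive hsp70-4c and 28.8, 23.9, 21.6 and 23.2 CPM in naive hsp70-1c. Between the 2 strains hsp70-1c at 5 h was the low group, and the other strains were as low. They had 8.48, 10.01 and 8.597 CPM (w+hsp70-) and 7.15, 12.8 and 8.44 CPM (hsp70-) at 5 h, and 23.4, 21.8 and 19.3 CPM (w+hsp70-) and 20.98, 21.4 and 14.8 CPM (hsp70-) when naive. The difference of differences was 1.42 (SE 0.21, edgeR adjusted p 0.00597), and it was called without any 1 of the 14 libraries involved.

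CG9616 (3R:14244804-14245471) was near 0 in hsp70-4c at all times. It had 0.526, 1.16 and 1.58 CPM in hsp70-4c at 5 h and 3.46, 4.96 and 3.98 CPM in hsp70-1c, with 0.384, 0.395, 0.456 and 0.918 CPM in naive hsp70-4c and 20.4, 15.4, 21.9 and 18.4 CPM in naive hsp70-1c. The other strains were low at 5 h too, with 4.95, 3.84 and 2.52 CPM in w+hsp70- and 2.34, 4.66 and 1.43 CPM in hsp70-, beside 15.8, 19.3 and 9.04 CPM in w+hsp70- and 9.90, 11.7 and 4.58 CPM in hsp70- when naive. The difference of differences was 3.23 (SE 0.47, edgeR adjusted p 0.00597), and it was not called without hsp70-4c 5 h replicate 3 (0.069).

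daw (dawdle, 2L:2805261-2812376), an activin-like ligand of the TGF-beta family that acts in sugar metabolism, had 28.03, 20.7 and 19.6 CPM in hsp70-4c and 40.9, 60.3 and 52.4 CPM in hsp70-1c at 5 h. Naive flies had 29.1, 24.8, 22.2 and 17.8 CPM in hsp70-4c and 19.5, 18.97, 21.9 and 26.4 CPM in hsp70-1c, so of these groups hsp70-1c at 5 h was the high one. The other strains had similar 5 h levels, 41.5, 42.9 and 42.1 CPM in w+hsp70- and 56.7, 48.3 and 51.9 CPM in hsp70-. The difference of differences was -1.27 (SE 0.23, edgeR adjusted p 0.0398). CG13563 had 16.1, 15.96 and 15.6 CPM in hsp70-4c and 13.05, 10.5 and 13.5 CPM in hsp70-1c at 5 h, and 11.02, 11.1, 11.1 and 9.83 CPM in naive hsp70-4c and 12.95, 16.3, 16.98 and 18.6 CPM in naive hsp70-1c (difference of differences 0.97, SE 0.17, edgeR adjusted p 0.0309). Each of these 2 calls was lost under 10 of the 14 single-library omissions (0.058 to 0.191). That of daw held without replicate 1 of either strain at 5 h or replicate 4 of either strain when naive, and that of CG13563 without replicate 1 or 3 of hsp70-1c at 5 h or replicate 1 or 2 of naive hsp70-1c. The plot of these 5 genes by time shows which group moved.

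**Figure D4:**
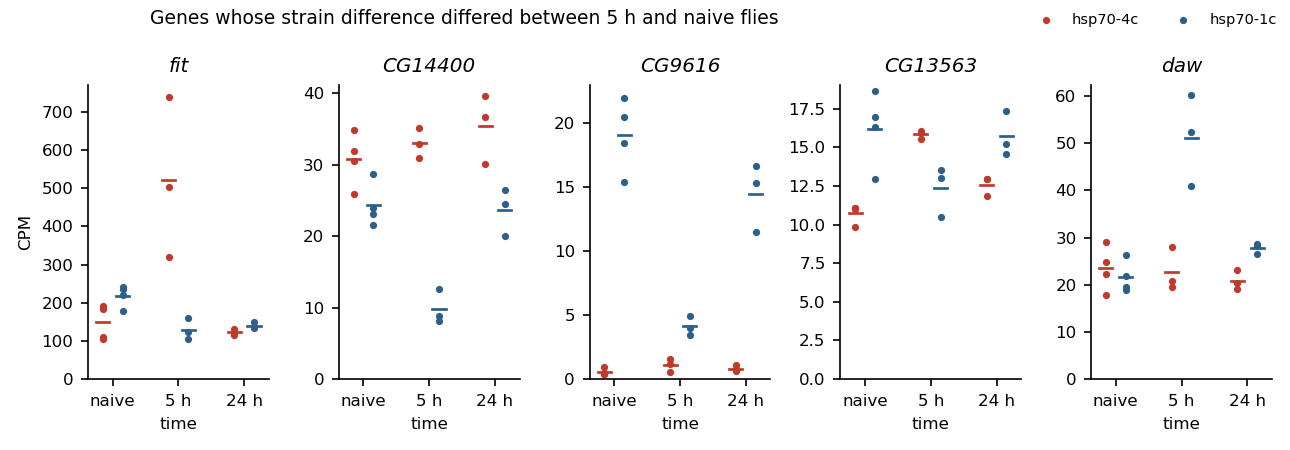
CPM (vertical axes, each from 0) of the 5 genes in naive flies, at 5 h and at 24 h (horizontal axes) for hsp70-4c (red, left) and hsp70-1c (blue, right); points are libraries and bars are group means. For fit the hsp70-4c libraries at 5 h, from 321 to 740 CPM, lie above all others, and for CG14400, CG9616 and daw it is hsp70-1c at 5 h that departs from its naive level.

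In most of the larger differences hsp70-4c stood apart from the other strains. For the 306 genes called with at least 2-fold, the 5 h means of w+hsp70- and hsp70- were both nearer to hsp70-1c in 258 (84.3%), both nearer to hsp70-4c in 17, and divided in 31, on the scale of log2 CPM with 0.1 added. Rh6, with 509, 559.8 and 568.3 CPM in w+hsp70- and 566, 615 and 658 CPM in hsp70-, and Msp300, with 104, 109 and 95.2 CPM in w+hsp70- and 116, 127 and 125 CPM in hsp70-, were near their hsp70-1c levels in both. Among the 17, besides Rh7 and MtnB, CG13833 averaged 121 CPM in hsp70-4c and 28.0 CPM in hsp70-1c, beside 99.5 CPM in w+hsp70- and 106 CPM in hsp70-. CG7017 divided the strains further, with 2.40, 3.004 and 3.71 CPM in w+hsp70- and 0.987, 1.16 and 0.159 CPM in hsp70- against its 11.1, 14.99 and 15.4 CPM in hsp70-1c. The plot of 24 genes in 4 strains, the 12 largest called differences in each direction among genes with a mean of at least 5 CPM in the higher group, shows hsp70-4c apart from the other strains in nearly every one. These genes were also chosen for no overlap between the hsp70-4c and hsp70-1c libraries, so that separation was set by the choice.

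**Figure D5:**
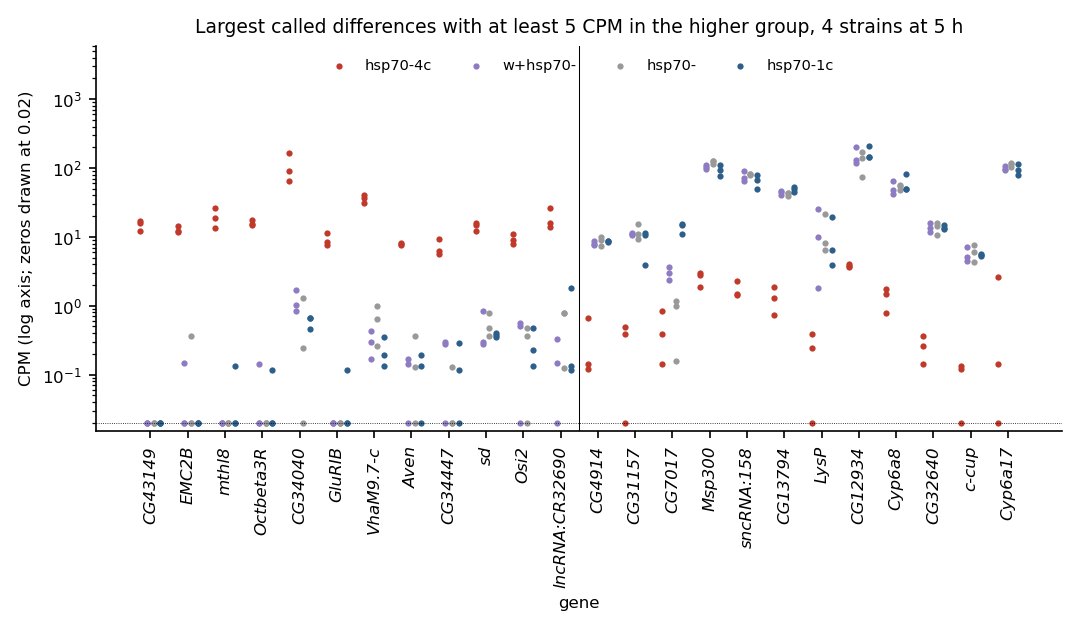
CPM on a log axis (vertical; libraries at 0 drawn at 0.02) of the 12 genes with the largest called differences in each direction among those with a mean of at least 5 CPM in the higher group (horizontal; higher in hsp70-4c left of the line, lower right of it) in hsp70-4c, w+hsp70-, hsp70- and hsp70-1c at 5 h, 3 libraries per strain. Genes whose hsp70-4c and hsp70-1c libraries overlapped were left out of the choice. The red hsp70-4c points stand above the other strains on the left and below them on the right. The exception is CG7017, for which hsp70- reaches the hsp70-4c level.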

How the data were processed

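Poly(A) RNA from frozen pools of male heads was sequenced as 75-bp single-end reads from a directional kit, per the labels' protocols. The authors deposited raw read counts per FlyBase gene. Trimmomatic, STAR 2.5.0a and featureCounts 1.5.0-p1 with build dm6 are named in the submitters' processing notes. The strand setting of the counting is not given in the sources used here. The 12 status lines of each library stayed out of library sizes. Of 17559 genes, 17253 had a symbol and a position in the Ensembl BDGP6 annotation of dm6, and 306 had neither.

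The hsp70-4c and hsp70-1c libraries at naive, 5 h and 24 h (20) were fitted together with edgeR 4.0.16 in R 4.3.3 (filterByExpr, TMM, robust quasi-likelihood, 1 mean per group), and p-values were adjusted over all 10764 genes passing the filter by the Benjamini-Hochberg method; "called" means an adjusted p under 0.05. A standard error (SE) is the log2 difference over the square root of its F. The naive hsp70-4c libraries were assigned by their time point label, since their titles read like 5 h controls. Alternatives were DESeq2 1.42.0, its size factors, no filter, all 32 libraries, the 6 libraries alone, a replicate block and each library left out. Genes named were Hsp70 copies, w, the 12 largest called differences in each direction and up to 4 called members per list. Each set of 12 needed a mean of at least 5 CPM in the higher group. It also needed no overlap between the hsp70-4c and hsp70-1c libraries at 5 h. Up to 8 genes per direction were named for the difference of differences. Others were named after their values were seen. The lists and the comparison were chosen with earlier results of these data known. The fits were tested on simulated counts. Floors and counting intervals (95%) cover counting error only.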

Additional observations from a re-analysis of the deposited data

Results flagged for a closer look

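The strain difference at 5 h differed from that in naive flies, by a test of the difference itself, for 5 genes: fit (2.59), CG14400 (1.42), CG9616 (3.23), CG13563 (0.97) and daw (-1.27), all as log2 differences with edgeR adjusted p of 0.0106, 0.00597, 0.00597, 0.0309 and 0.0398 in that order. Every 5 h library of hsp70-4c was above every naive hsp70-4c library for fit and CG13563, and every 5 h library of hsp70-1c was below every naive hsp70-1c library for fit, CG14400 and CG9616 and above every one for daw. The 5 genes were chosen by a test on these same libraries, so the choice favours such separation and the separation adds no support. The share of all genes so separated was not measured. The 4 naive libraries of each strain were checked for these 5 genes and for the summed gut enzyme genes, and in 2 of these 12 groups 1 library lay far from the other 3: replicate 4 of naive hsp70-4c for CG13563, at 9.83 CPM beside 11.0 to 11.1 CPM, and replicate 4 of naive hsp70-4c for CG9616, at 0.918 CPM beside 0.384 to 0.456 CPM. Chance gives such a gap in about 1 of 20 groups.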

How the results depend on the processing

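The labels give the strains the same replicate numbers, but same-numbered libraries of the 2 strains at 5 h did not deviate together (correlations of -0.38 to 0.079), so the numbers were not taken to pair libraries. With a replicate block 512 genes were called at 5 h, against 774 without it, and 424 at 24 h, against 641; it left 0 for the difference between 5 h and naive flies. Without 1 library at a time, 518 to 662 genes were called at 5 h, 2 to 9 for 5 h minus naive and 0 to 2 for 5 h minus 24 h. For 5 h minus naive the fit of all 32 libraries called 2 and DESeq2 called 45. DESeq2 gave no adjusted p there for 7513 of 10764 genes, so its adjustment covered fewer genes than that of edgeR. For 5 h minus 24 h DESeq2 called 2. How far the set of genes adjusted accounts for the differing counts was not tested. The other settings gave 689 (no filter), 775 (DESeq2 size factors), 734 (all 32 libraries), 554 (the 6 libraries alone) and 840 (DESeq2) calls at 5 h. Of 103 genes named by the rules and called at 5 h, 26 lost the call under at least 1 setting and 0 changed direction. The rules favour large differences and small p-values, so this share does not stand for all calls. Of all 774 called genes, 359 lost the call without 1 or another of the 6 libraries. The replicate block ended 18 of the calls of the 103 genes (edgeR adjusted p 0.051 to 0.214). They were those of Gp93, Arr1, BomS3, PGRP-SC2, TotA, Arc1, CCHa2, Ahcy and Jheh3. The rest were Ance-3, Tsf3, Mal-A6, Indy, GstE9, GstS1, GstD5, Or43b and COX4L. Besides losses given above, the fit of the 6 libraries alone did not call LysP, Gp93, Arr1, Def, Rel, TotX, Ahcy, Ance-3, Tsf3, Indy, GstS1, GstD5 and Or43b (edgeR adjusted p 0.0501 to 0.237), that of all 32 libraries LysP, Def and Cp15 (0.052 to 0.120), and that without a filter LysP, Def, TotX, Ahcy, Tsf3, Mal-A6 and Indy (0.051 to 0.094); DESeq2 did not call Tsf3 (0.064). Depth limits genes with few reads: differences among them could be missed.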
